A study of Mus musculus with 11 samples.

Results

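Fos, Jun, Atf2, Myc, Max, Elk1, Cebpb and Ddit3 are 8 genes of a mouse inflammation panel that holds 240 others. They are described as 1 set of AP-1, Myc and Max, ternary complex and stress transcription factors. They were picked by symbol (FOS, JUN, ATF2, MYC, MAX, ELK1, CEBPB and DDIT3 in the deposited tables), not by their values, and all 8 were measured in every sample. The panel was run on corneas of female C57BL/6 mice, labelled as cornea epithelia, by NanoString hybridisation, which counts barcoded probes bound to each transcript without amplification. All mice, controls included, drank scopolamine to suppress tears and were kept in dry moving air for 5 days, a model of dry eye. Vehicle eye drops were given in 3 samples, the pan-Trk agonist pan at 10 µM in 4 samples and the TrkC agonist C1 at 10 µM in 4 samples. Trk receptors are the tyrosine kinases that bind neurotrophins. Unstressed corneas were not analysed here, so the values describe stressed tissue with and without a compound. The study calls the samples biological replicates, and whether each came from 1 or several animals is not given in the sources used here.

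The labels hold 2 ages. One reads 3 months for every sample. The other reads 22 to 24 months for pan 4 and all 4 C1 samples, and 2 to 3 months for the rest, so every C1 sample carries the higher and every vehicle sample the lower age, and pan 4 alone shares a label with C1. The study's methods give all its mice an age in weeks, far below the higher label, so that label is uncertain, and values with it as a covariate are given as a check. Probe counts summed over the panel ran from 91955 to 133098 in vehicle, from 64156 to 646446 in pan, where pan 4 was the deepest, and from 165828 to 525997 in C1, all above vehicle. The table gives the ELK1 row the gene ID and description of Kcnh8, a potassium channel, while the gene list of the panel pairs the symbol Elk1 with an Elk1 transcript. Values of that row are given as Elk1 with this limit.

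Immediate-early genes are transcribed within minutes of a stimulus without new protein synthesis, which makes their transcripts a common readout of growth factor and stress signalling. MAP kinases downstream of receptors such as the Trk family phosphorylate Elk1 at the Fos promoter, and stress kinases phosphorylate Jun and Atf2. Fos and Jun pair as AP-1, Myc pairs with Max, and C/EBP-beta, the product of Cebpb, pairs with the stress protein CHOP, the product of Ddit3.

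The 250 bases before the start of Jun and of Fos are shown because Jun lay further above vehicle than any other of the 8 genes with either compound and Fos had the widest spread in vehicle and in C1. Sequences are from RefSeq on GRCm38.p6, where 7 of the 8 genes had an entry and Myc did not. Jun lies on the minus strand (chr4:95052223-95052472) and Fos on the plus strand (chr12:85473640-85473889). Both are written 5′ to 3′ along the gene. Capitals mark, in Jun, a CCAAT box, the AP-1-like site TGACATCA and a MEF2 site, and in Fos a TATA box.
Jun: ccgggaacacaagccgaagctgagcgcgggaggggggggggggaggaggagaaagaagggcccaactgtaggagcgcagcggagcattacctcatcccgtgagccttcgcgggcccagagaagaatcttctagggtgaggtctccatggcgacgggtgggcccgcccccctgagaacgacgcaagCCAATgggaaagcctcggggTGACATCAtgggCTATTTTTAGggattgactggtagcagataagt
Fos: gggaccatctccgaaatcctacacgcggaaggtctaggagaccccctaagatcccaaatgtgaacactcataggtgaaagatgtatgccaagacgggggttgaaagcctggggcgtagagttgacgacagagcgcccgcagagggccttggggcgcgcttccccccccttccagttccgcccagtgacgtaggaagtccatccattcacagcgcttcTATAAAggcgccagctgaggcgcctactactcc

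Both strands were searched, and positions count back from the start, with -1 the base before it. The AP-1-like site TGACATCA of Jun began at -45 and was found in 2.93% of 32851 mouse promoter windows of the same length. The MEF2 site began at -33 (2.92% of windows) and the CCAAT box at -65 (33.8%). In Fos the TATA box TATAAA began at -33 (12.4%). Ddit3 held the AP-1 site TGACTCA at -242 (4.46%), the Ets site CCGGAAGT of ternary complex factors on the opposite strand at -200 (2.88%) and a CCAAT box at -77. Atf2 held 1 CCAAT box and Elk1 held 3. The E-box CACGTG of Myc and Max (6.02%), the cAMP response element TGACGTCA (1.55%), the composite ATF and C/EBP site TGATGCAA (0.791%) and the CArG box (1.47%) had no match in the 7 windows, and those of Cebpb and Max held none of the motifs searched. A match describes letters in this window and is not evidence of binding. A miss means only that the letters searched were absent from these windows. Sites outside the windows were not searched, and a site with other letters would be missed. The Fos window, for example, holds tgacgtag, which differs from TGACGTCA and was not counted. The misses therefore do not show that these genes, Fos included, lack such elements.

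None of the 8 genes passed the test with either compound. With limma across the panel and p-values adjusted by Benjamini-Hochberg over the whole panel, 0 of 8 had an adjusted p under 0.05 for pan against vehicle, where 2.02% of the panel did. For C1 against vehicle it was 0 of 8, where the share of the panel was 0%. Without adjustment, Jun alone of the 8 had a p under 0.05 with C1, as did 10.5% of the panel, and 0 of 8 did with pan, against 12.5% of the panel. The median log2 fold change of the 8 genes was 0.11 with pan, where the median of all genes was -0.20, and 0.12 with C1, where that of all genes was -0.02. In 3 of 8 genes the C1 and vehicle samples did not overlap: Jun and Cebpb were higher and Max was lower in all 4 C1 samples. Over the panel, 10.1% of genes had no overlap in this comparison, 6.05% with C1 higher and 4.03% with C1 lower. No member separated pan from vehicle, against 10.9% of the panel (2.42% higher and 8.47% lower with pan). Both comparisons use the same 3 vehicle samples, so a high or low vehicle value moves both.

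**Figure D1:**
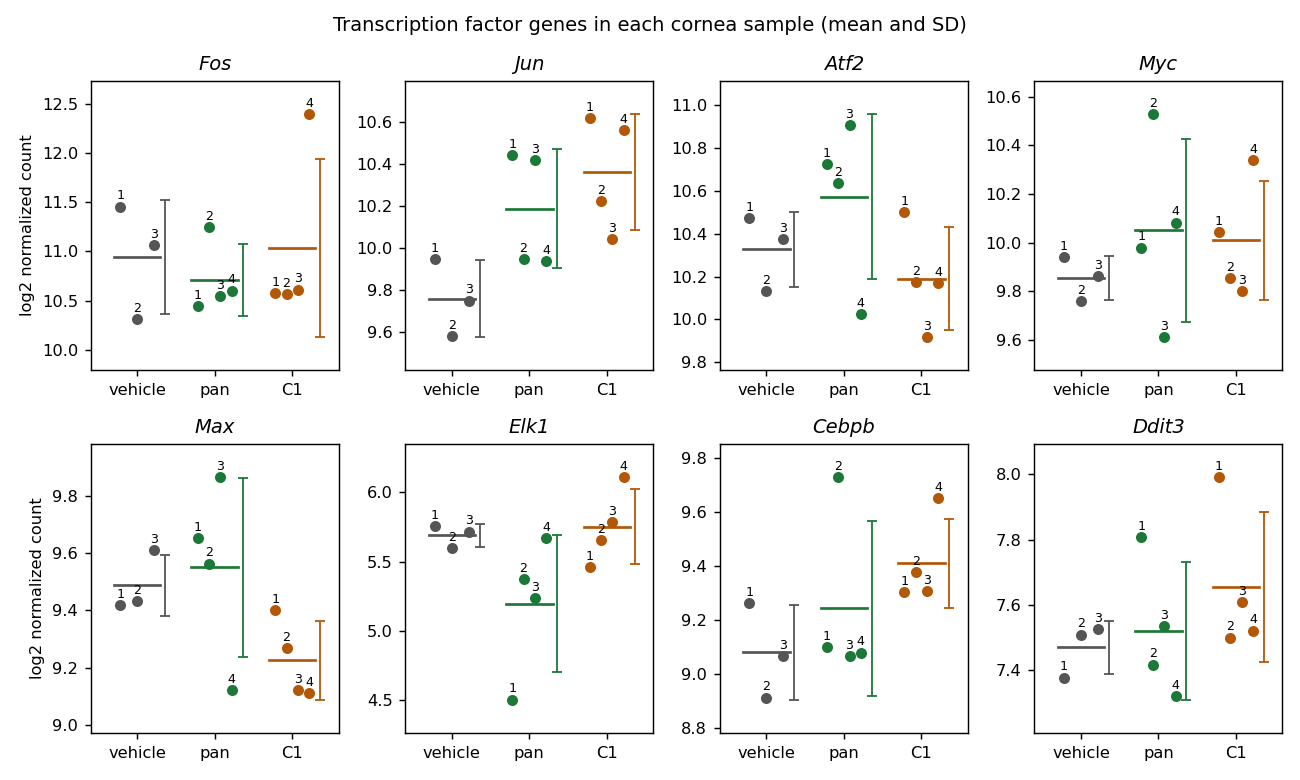
Log2 normalized counts of the 8 genes (y axis, with a range of its own in each panel) in the vehicle, pan and C1 samples (points, numbered by replicate), with the group mean (horizontal line) and SD (bar). All 4 C1 points lie above the vehicle points for Jun and Cebpb and below them for Max, and C1 4 stands alone at 12.39 for Fos.

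Jun, the DNA-binding core of AP-1, had its lowest values in the vehicle samples. On the log2 scale of normalized counts it was at 9.95, 9.58 and 9.75 in vehicle, at 10.44, 9.95, 10.42 and 9.94 in pan, and at 10.62, 10.22, 10.04 and 10.56 in C1. All C1 samples exceeded the highest vehicle sample, while pan 1 and pan 3 did so clearly, pan 2 did so by little (988 against 987 normalized counts), and pan 4 did not. Mean normalized counts were 872 ± 110.1 (SD, n = 3) in vehicle, 1182 ± 229 (SD, n = 4) in pan and 1332 in C1, where 4 samples gave a coefficient of variation of 18.6%. The ratio of C1 to vehicle was 1.52 (95% interval 1.11 to 2.07), a log2 fold change of 0.60 ± 0.19 (SE) whose limma p of 0.0164 became 0.370 after adjustment. The exact two-sided permutation p was 0.0571, the smallest that 35 splits of 3 against 4 samples allow. For pan the log2 fold change was 0.43 ± 0.24 (SE, adjusted p = 0.517 by limma). Jun rested on 333 to 3497 probe counts per sample. Among the samples with the higher second age label, the 4 C1 samples were all above pan 4, on average by 0.42 log2 units. Among those with the lower one, pan 1 to 3 were above vehicle by 0.51 on average.

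Fos, the partner that makes AP-1 a strong activator, had the widest spread of the 8 in vehicle and in C1. It was at 11.45, 10.32 and 11.07 in vehicle, at 10.44, 11.25, 10.54 and 10.60 in pan, and at 10.57, 10.57, 10.61 and 12.39 in C1. The vehicle samples alone spanned 1.14 log2 units and took in all pan samples, while C1 4 was above every other sample and the remaining 3 C1 samples lay between 10.57 and 10.61. Its coefficient of variation of normalized counts was 37.0% in vehicle, 28.0% in pan, where that of the Elk1 row was higher at 30.7%, and 76.9% in C1. Pan differed from vehicle by -0.24 ± 0.34 log2 units (SE, adjusted p = 0.834 by limma) and C1 by 0.09 ± 0.52 (SE, adjusted p = 0.939), and leaving out C1 4 turned the latter to -0.36. The 95% interval for C1, from -1.16 to 1.34, holds a change of the size seen for Jun. The log2 value of Fos minus that of Jun in the same sample does not depend on normalization. It was 1.51, 0.73 and 1.31 in vehicle, 0.00, 1.30, 0.13 and 0.66 in pan, and -0.04, 0.34, 0.57 and 1.83 in C1. In 3 of 4 samples of each treated group, pan 2 and C1 4 apart, it was below all vehicle samples.

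Atf2, which can pair with Jun at cAMP response elements and is activated by p38 and JNK, was mostly higher in pan and lower in C1. It was at 10.48, 10.13 and 10.37 in vehicle, at 10.73, 10.64, 10.91 and 10.02 in pan, and at 10.50, 10.18, 9.92 and 10.17 in C1. The first 3 pan samples exceeded all vehicle samples and pan 4 was below all of them, so the groups overlapped in every comparison. Pan differed from vehicle by 0.25 ± 0.27 log2 units (SE, adjusted p = 0.774 by limma) and C1 by -0.14 ± 0.18 (SE, adjusted p = 0.807). The latter turned to 0.22 when depth (the log2 total count) was a covariate and to 0.60 when the second age label was.

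**Figure D2:**
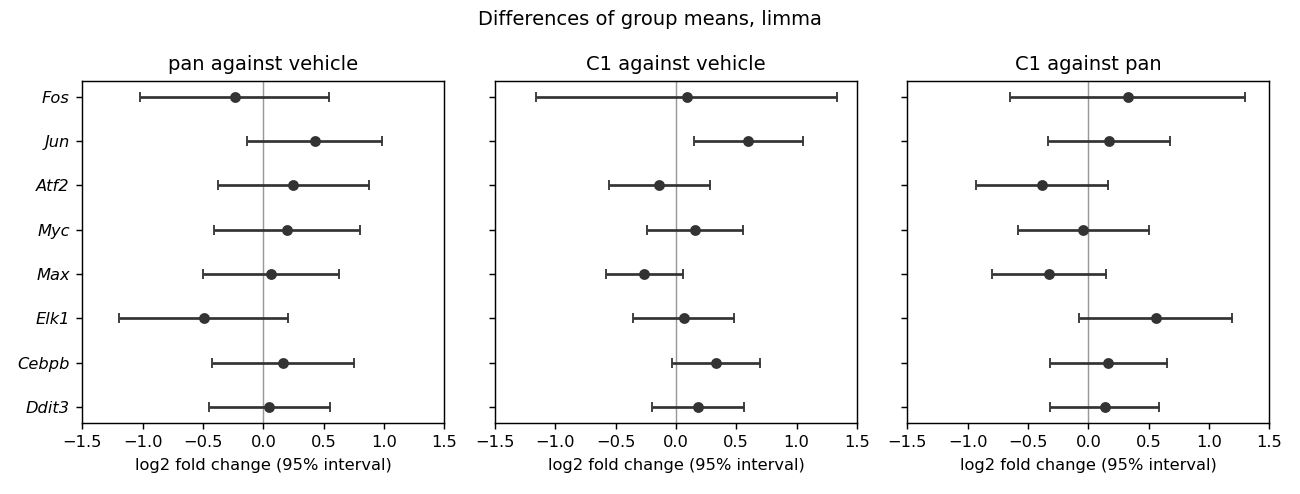
Log2 fold changes of the 8 genes (points) with limma's 95% intervals (bars) for pan against vehicle, C1 against vehicle and C1 against pan. The interval of Jun for C1 against vehicle, 0.15 to 1.05, is the one that does not reach 0.

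Max, the shared partner through which Myc binds DNA, was lower in C1 than in vehicle. It was at 9.42, 9.43 and 9.61 in vehicle, at 9.65, 9.56, 9.87 and 9.12 in pan, and at 9.40, 9.27, 9.12 and 9.11 in C1. All C1 samples were below the vehicle samples, C1 1 narrowly, and pan 4 was as low as C1 3. Mean normalized counts were 719 ± 53.9 (SD, n = 3) in vehicle and 601 ± 57.9 (SD, n = 4) in C1, a log2 fold change of -0.26 ± 0.13 (SE) with an adjusted p of 0.491 by limma. The exact permutation p was 0.0571, again the smallest possible. This difference was 0.01 when depth was a covariate and 0.31 when the second age label was, so its direction was not kept under either. With pan the log2 fold change was 0.06 ± 0.24 (SE, adjusted p = 0.942).

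Myc, which drives growth and proliferation genes, varied little in vehicle and more in the treated groups. It was at 9.94, 9.76 and 9.86 in vehicle, at 9.98, 10.53, 9.61 and 10.08 in pan, and at 10.04, 9.85, 9.80 and 10.34 in C1. The vehicle values lay inside the range of pan and overlapped with C1, and pan 2 and C1 4 were the highest. Relative to vehicle, the log2 fold change of Myc was 0.20 ± 0.26 for pan (SE, adjusted p = 0.800 by limma) and 0.15 ± 0.17 for C1 (SE, adjusted p = 0.787). Myc minus Max, again within a sample, was 0.52, 0.33 and 0.25 in vehicle and 0.64, 0.58, 0.68 and 1.23 in C1. All C1 samples were above all vehicle samples on this measure, which contains the lower Max values of C1. With the second age label as a covariate Myc was at 0.11 and Max at 0.31 against vehicle, so Myc minus Max was then not higher with C1. In pan it was 0.33, 0.96, -0.25 and 0.96, which spans both groups.

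Elk1, the ternary complex factor through which ERK signalling reaches serum response elements, was the dimmest of the rows, at 7 to 162 probe counts. It was at 5.76, 5.60 and 5.72 in vehicle, at 4.51, 5.37, 5.24 and 5.67 in pan, and at 5.46, 5.66, 5.79 and 6.11 in C1. The first 3 pan samples, which were below every vehicle sample, held 7, 17 and 13 counts, and pan 4 with 162 counts was inside the vehicle range. For the 7 counts of pan 1 the exact Poisson 95% interval runs from 9.13 to 46.8 normalized counts, and that of vehicle 1 from 35.6 to 78.6, so they overlap. Both cover counting error only. The log2 fold change was -0.49 ± 0.30 (SE, adjusted p = 0.550 by limma) with pan, and -0.26 without pan 1. It was 0.06 ± 0.18 (SE, adjusted p = 0.912) with C1, where leaving out C1 4 gave -0.06, depth as a covariate gave -0.34 and the second age label gave -0.57.

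Cebpb, whose product drives acute-phase and epithelial differentiation genes, was higher in C1 than in vehicle. It was at 9.26, 8.91 and 9.07 in vehicle, at 9.10, 9.73, 9.07 and 9.08 in pan, and at 9.30, 9.38, 9.31 and 9.65 in C1. All C1 samples exceeded all vehicle samples, C1 1 narrowly, while in pan only pan 2 did and the other 3 lay between 9.07 and 9.10. Mean normalized counts were 544 ± 66.8 (SD, n = 3) in vehicle, 619 ± 154 (SD, n = 4) in pan and 684 ± 82.4 (SD, n = 4) in C1. The ratio of C1 to vehicle was 1.26 (95% interval 0.976 to 1.62), a log2 fold change of 0.33 ± 0.15 (SE) with a limma p of 0.0703 and an adjusted p of 0.452, and the exact permutation p was 0.0571. With pan the log2 fold change was 0.16 ± 0.25 (SE, adjusted p = 0.845), and without pan 2 it was 0.00. The 4 C1 samples also lay above pan 4, the pan sample that shares their second age label.

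Ddit3 encodes CHOP, a factor of the unfolded protein response. It was at 7.38, 7.51 and 7.53 in vehicle, at 7.81, 7.42, 7.53 and 7.32 in pan, and at 7.99, 7.50, 7.61 and 7.52 in C1. Replicate 1 was the highest of each treated group, the other treated samples lay close to vehicle, and the groups overlapped. Ddit3 differed from vehicle by 0.05 ± 0.22 log2 units in pan (SE, adjusted p = 0.942 by limma) and by 0.18 ± 0.16 in C1 (SE, adjusted p = 0.755), with 95% intervals from -0.45 to 0.55 and from -0.20 to 0.57. Ddit3 minus Cebpb ranged from -1.89 to -1.40 in vehicle, from -2.31 to -1.29 in pan and from -2.13 to -1.31 in C1, so the treated groups contained the vehicle range.

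Pan and C1 were given at the same dose for the same time, which allows them to be set against each other in 4 samples each. Of the 8 genes compared, 0 passed limma's adjusted p of 0.05, as did 0.403% of the panel. Without adjustment 0 of 8 had a p under 0.05, against 15.3% of the panel, and no gene of the 8 had groups without overlap, against 8.06% (7.66% with C1 higher and 0.403% with C1 lower). Elk1 had the largest difference, C1 minus pan at 0.56 log2 units (95% interval -0.08 to 1.19, adjusted p = 0.365). Atf2 followed at -0.38 (-0.93 to 0.16, adjusted p = 0.470), then Fos at 0.33 (-0.65 to 1.30, adjusted p = 0.681) and Max at -0.33 (-0.80 to 0.15, adjusted p = 0.474). This order was not kept with the second age label as a covariate, where each difference is the C1 mean minus pan 4 alone. There Elk1 was at 0.082, Atf2 at 0.17, Max at 0.10, Jun at 0.42, Cebpb at 0.33, Ddit3 at 0.33, Fos at 0.43 and Myc at -0.07. With depth as a covariate Elk1 was at 0.22, and without pan 1 at 0.33. For Jun the difference was 0.17 (-0.33 to 0.68) and for Cebpb 0.17 (-0.32 to 0.65). Ddit3 at 0.13 (-0.32 to 0.59) and Myc at -0.04 (-0.59 to 0.50) complete the list. The values do not show that the compounds act alike, since the intervals reach 1.19 for Elk1 and 1.30 for Fos.

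**Figure D3:**
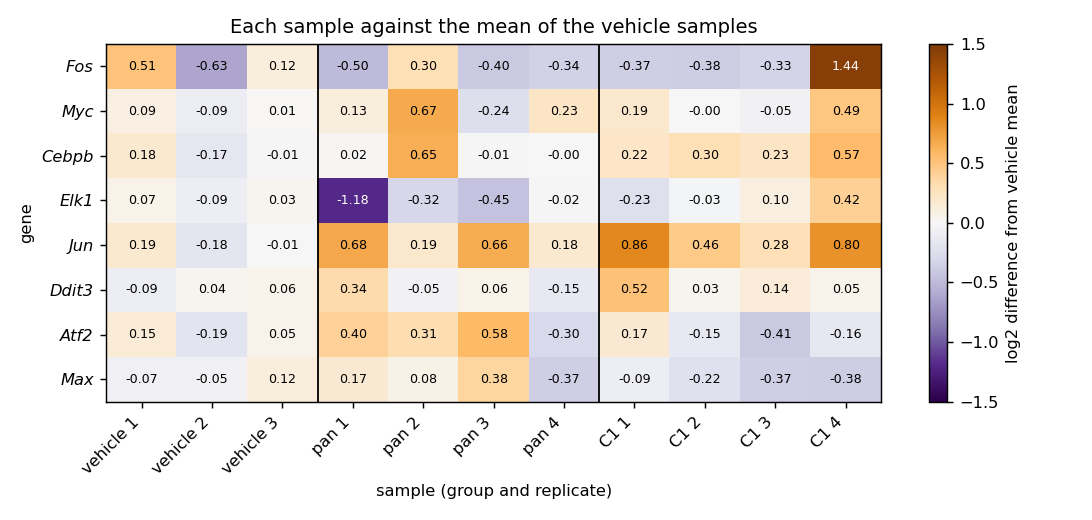
Difference of each sample (columns) from the mean of the vehicle samples for the 8 genes (rows), in log2 units, with brown higher and purple lower. Within pan, Fos, Myc and Cebpb are highest in pan 2, and within C1 in C1 4, and the Jun row is above 0 in all treated samples, from 0.18 to 0.86.

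Within the groups the genes did not vary alone. Fos, Myc and Cebpb were at their group's highest in pan 2 and again in C1 4. In C1 4 they were above the vehicle mean by 1.44, 0.49 and 0.57. These samples were also the highest of their group for many other genes, pan 2 for 48.1% and C1 4 for 38.9% of the 131 genes whose log2 values averaged 5 or more. With group means removed, Pearson's r over the 11 samples was 0.77 for Fos and Cebpb, 0.84 for Myc and Cebpb and 0.71 for Fos and Myc. Atf2 and Max formed another pair, with r = 0.89, and were highest in pan 3 and in C1 1, the highest samples of their group for 28.2% and 38.9% of the 131 genes. For Jun, r was 0.77 with Atf2 and 0.26 with Fos, and for Elk1 and Ddit3 it was -0.83. Without removing group means these were weaker, at 0.37, 0.18 and -0.45, while Fos and Cebpb were at 0.68, Myc and Cebpb at 0.79, Fos and Myc at 0.61 and Atf2 and Max at 0.89. These are descriptions over samples that share a normalization factor and a depth in each sample.

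Of the 131 brighter genes, the 2 whose log2 values followed each member most closely were Cebpb (r = 0.68) and Grb2 (0.66) for Fos, Il10rb (0.77) and Hmgb2 (0.70) for Jun, and Mef2a (0.98) and Rela (0.97) for Atf2. They were Relb (0.81) and Cebpb (0.79) for Myc, Rela (0.92) and Bcl2l1 (0.91) for Max, and Tlr4 (0.94) and Bcl6 (0.93) for the Elk1 row. Cebpb was closest to Alox12 (0.83) and Ltb4r1 (0.80), and Ddit3 to Ifit2 (0.62) and Jun (0.61). With group means removed, the closest gene was again Cebpb for Fos (0.77) and Mef2a for Atf2 (0.97). It became C3 for Jun (0.93), Traf2 for Myc (0.89), Hmgb1 for Max (0.98), Tlr5 for Elk1 (0.92), Ripk2 for Cebpb (0.95) and Cd55 for Ddit3 (0.75).

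**Figure D4:**
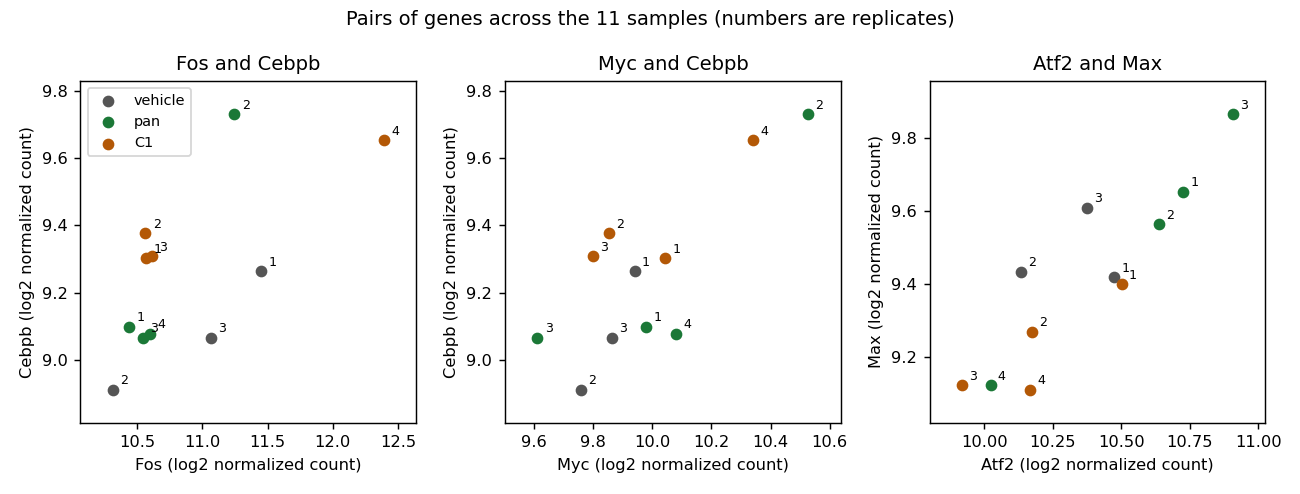
Log2 normalized counts of Fos against Cebpb, Myc against Cebpb and Atf2 against Max in the 11 samples (points coloured by group and numbered by replicate). Pan 2 and C1 4 lie apart at the top of the Fos and Myc panels, where the y axis is Cebpb. Atf2 and Max rise together from C1 3 and pan 4 to pan 3.

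Other genes of the panel act before, beside or after these factors. Of 16 kinases that signal to them, 0 passed the test in any comparison. The median log2 fold change of these kinases was -0.09 (pan) and -0.02 (C1). The smallest p belonged to Mapk3, the kinase ERK1, with pan (-0.48 ± 0.28 SE, adjusted p = 0.517 by limma), to Map3k1, a kinase upstream of JNK, with C1 (-0.30 ± 0.14 SE, adjusted p = 0.452), and to Mknk1, a kinase downstream of ERK and p38, for C1 against pan (-0.41 ± 0.22 SE, adjusted p = 0.365). Of 13 other stimulus-responsive transcription factors, 0 passed, with medians of -0.10 and -0.07. Mef2c, a factor that binds MEF2 sites, had the smallest p with pan (-1.10 ± 0.46 SE, adjusted p = 0.372), on 2 to 53 probe counts per sample, and for C1 against pan (1.25 ± 0.40 SE, adjusted p = 0.256). Mef2d of the same family had it with C1 (-0.19 ± 0.12 SE, adjusted p = 0.587).

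Of 14 textbook target genes of AP-1, C/EBP-beta and ERK signalling, 1 rose with pan and 0 fell, where 0.806% of the panel rose and 1.21% fell, and 0 passed in either direction with C1 or between the compounds. The gene that rose was Cxcl1, a neutrophil chemokine, which ran from 3.20 to 4.04 in vehicle and was at 5.79, 5.61, 5.24 and 5.82 in pan, and at 4.55, 4.13, 4.25 and 7.29 in C1. All pan samples were above all vehicle samples (log2 fold change 1.86 ± 0.29 SE, adjusted p = 0.0181 by limma), although the vehicle values rested on 8, 4 and 10 counts. Over 16 alternatives the difference stayed between 1.29 and 3.29 and the adjusted p lay between 0.0193 and 0.219, under 0.05 in 6 of them. Leaving out vehicle 2, vehicle 3, pan 1, pan 2 or pan 4 ended the call, with adjusted p from 0.0536 to 0.0705. It also ended with the replicate block (adjusted p = 0.0888) and with depth (0.161) or the second age label (0.204) as a covariate. The same held with all groups in 1 fit (0.217) and with background subtracted (0.219). Leaving out pan 4, the replicate block and the second age label gave 1 and the same difference, 1.79. Each of them takes pan 4 out of the difference, so they are not separate checks. With C1 the difference was 1.31 ± 0.79 (SE, adjusted p = 0.567), with C1 4, the sample highest for Fos, also the highest for Cxcl1. Areg, an epidermal growth factor receptor ligand, had the smallest p with C1, at 0.74 ± 0.17 (SE, adjusted p = 0.211). It was at 8.56, 8.11 and 8.18 in vehicle and at 9.08, 9.07, 8.75 and 9.17 in C1, with no overlap. Cxcl2 had the smallest p for C1 against pan, at -1.05 ± 0.34 (SE, adjusted p = 0.256). The medians of the 14 genes were -0.04 with pan and 0.15 with C1.

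**Figure D5:**
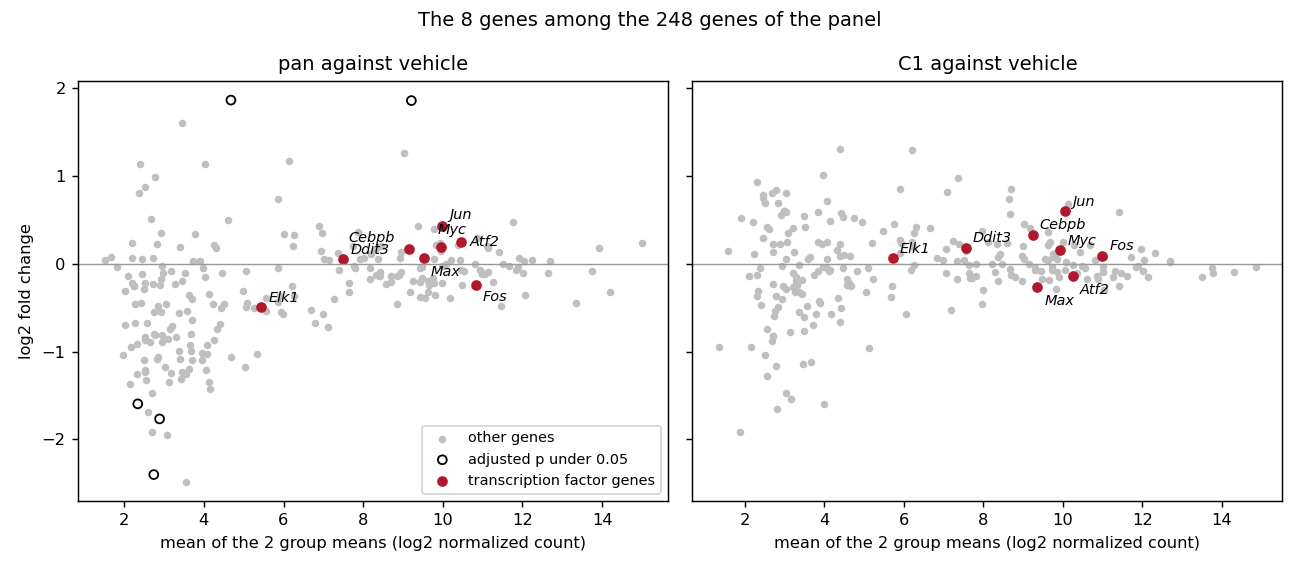
Log2 fold change (y axis) against the mean of the group means in log2 normalized counts (x axis) for every gene of the panel, with the 8 transcription factor genes in red and genes with an adjusted p under 0.05 as open circles. The 8 genes sit among the others of like level, from -0.49 (Elk1) to 0.43 (Jun) for pan and from -0.26 (Max) to 0.60 (Jun) for C1.

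Bulk tissue was counted, so fewer cells of a type and less RNA per cell cannot be told apart. The panel holds no keratin, and the epithelial label could not be checked against a defining marker. Transcripts of other cells were present. The summed normalized counts of 10 myeloid genes ran from 430.4 to 548 in vehicle and from 251 to 426 in pan, all below vehicle. In C1 they ran from 439.6 to 606. With pan, 0 of these 10 genes passed the test, and 9 had a lower and 1 a higher mean. Their median log2 fold change with pan was -0.50, where that of all genes was -0.20. The sums of 5 T cell genes, mostly at a few counts per gene, ran from 41.5 to 47.7 in vehicle. They ran from 22.7 to 36.6 in pan and from 27.5 to 48.8 in C1. The lowest value of any gene was 1 count, so 1 count is a floor and no gene could be seen at 0. All 5 T cell genes were at or under 3 counts in at least 1 pan sample. With pan, 3 of the 5 had a lower and 2 a higher mean. The 1 that passed the test, Ifng, the gene of interferon gamma, was lower but at the floor of 1 count in pan 1, 2 and 3, so no fold is given. Sums of 4 stromal genes overlapped between the groups, from 1004 to 1601 over pan, the widest group, and Myl2 of muscle was at 2.90 to 19.5 normalized counts over all samples. The part of these cells in the values of the 8 genes was not tested.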

How the data were processed

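Before deposit, the authors scaled each sample's probe counts to its housekeeping probes and took log2. They deposited 2 tables of log2 values with vehicle in both. The tables also hold the authors' fold changes and p-values, which were not used. Probe counts were recovered per sample as whole multiples of 1 step (100% of values within 0.01). Each comparison was fitted with limma 3.58.1 (lmFit, eBayes) in R 4.3.3 on the deposited log2 values of the whole panel, without covariates or pseudocount, and adjusted by Benjamini-Hochberg. Means and SDs are of normalized counts. Single values were tested by two-sided exact permutation (scipy 1.17.1, numpy 2.4.6, pandas 2.3.3, Python 3.11.15). Matplotlib 3.10.9 drew the figures. The limma step was tested on tables simulated from these samples.

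Genes named are the 8 members and, in 3 lists of related genes, each called gene or the gene with the smallest p. Also named for each member are the 2 genes with the highest Pearson's r. Of the cell type markers, Ifng (called with pan) and Myl2 (the only muscle gene) are named too. Members, lists and markers were chosen with earlier results of these data known. P-values measure the spread between these samples, which may be technical in part. Alternatives were centring on the median, a filter at a mean log2 of 5, a floor of 20 normalized counts, other prior variances, 1 fit of all groups, a replicate block, total count or the second age label as a covariate, background subtraction and leaving out each sample.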

Additional observations from a re-analysis of the deposited data

Results flagged for a closer look

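Fos in C1 4, at 12.39 on the log2 scale of normalized counts, lay apart from the other 3 C1 samples, which were at 10.57, 10.57 and 10.61. Cebpb in pan 2, at 9.73, lay apart from the other 3 pan samples, which were at 9.10, 9.07 and 9.08. Both gaps exceeded Dixon's 95% critical value for 4 samples. Of 16 groups of 4 samples tested (8 genes in pan and in C1) these were 2, where chance gives 0.8, about 1 in 20.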

How the results depend on the processing

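None of the 8 genes passed the adjusted p of 0.05 in any of the 3 comparisons under any alternative run. Jun for C1 against vehicle stayed between 0.51 and 0.93 on the log2 scale over 17 alternatives, with adjusted p from 0.133 to 0.807. Over the panel, the number of genes passing ranged from 1 to 9 for pan (5 as reported), from 0 to 2 for C1 (0) and from 0 to 2 between the compounds (1). Of 240 values of single genes under alternatives that keep every sample, 12 changed sign, and of 176 with a sample left out, 10 did. The cause of these changes was not tested. The filter, the other prior variances and the single fit of all groups leave a log2 fold change as it is. Their values among the 240 could therefore not change sign. For C1 against vehicle, the log2 total count as a covariate gave Fos -0.17, Atf2 0.22, Max 0.012 and Elk1 -0.34, and the second age label gave Atf2 0.60, Max 0.31 and Elk1 -0.57. For C1 against pan, that label gave Atf2 0.17 and Max 0.10, each the C1 mean minus pan 4 alone. Centring on the median lowered all differences between C1 and pan by 0.14 and took Ddit3 to -0.0037. Nothing in the labels pairs same-numbered samples, and the correlations of their deviations ran from -0.05 to 0.57. The highest were between C1 and pan, at 0.51 in replicate 1 and 0.57 in replicate 4. Whether such samples share a batch was not tested. With the replicate block, Fos was at -0.36 and Elk1 at -0.055 for C1 against vehicle. The block ended the call of Cxcl1 with pan (adjusted p = 0.0888) and changed none among the 8 genes. With 1 sample left out, signs changed for pan against vehicle in Fos (-0.55 to 0.018, vehicle 1), Max (-0.041 to 0.21, pan 3) and Ddit3 (-0.046 to 0.12, pan 1), for C1 against vehicle in Fos (-0.36 to 0.34, vehicle 2 or C1 4) and Elk1 (-0.055 to 0.16, C1 4), and between the compounds in Fos (-0.12 to 0.51, C1 4) and Myc (-0.19 to 0.12, pan 2, C1 2 or C1 3). Depth limits Elk1 most, at 7 counts in its lowest sample.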
